A study of Mus musculus with 6 samples.

Results

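The genes of the desmosome were followed in whole skin of FVB mice and of GC13 mice, a transgenic line that overexpresses the homeobox gene Hoxc13. Members were all probe sets whose gene symbol was Jup or Dsp, or was Dsc, Dsg or Pkp followed by a number, which gave 16 of 12422 probe sets and 10 of 8251 named genes. Of these genes 4 encode desmosomal cadherins (Dsc1, Dsc2, Dsc3 and Dsg2) and 6 encode proteins of the plaque or their relatives (Dsp, Jup, Pkp1, Pkp2, Pkp3 and Pkp4). The annotation named 0 probe sets Dsg1, Dsg3 or Dsg4, so Dsg2 was the only desmoglein that could be read. Skin was taken 5 days after birth, and each group held 3 arrays, 1 for each sample. The sources used here do not give the promoter that drives the transgene, the strain background of GC13 or how many animals went into a sample. Separate animals are not stated either, so the p-values speak of the spread among these samples, and that spread may be technical.

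Desmosomes rivet neighbouring keratinocytes together. Their cadherins, the desmocollins and desmogleins, bind each other across the gap between cells, and their tails enter a dense plaque built of plakoglobin (Jup), the plakophilins and desmoplakin (Dsp), which ties the keratin filaments to the membrane. Each layer of the epidermis and of the hair follicle carries its own mix of desmocollins, desmogleins and plakophilins, and inherited defects of several of these genes affect skin, hair or the heart. Whole skin holds epidermis, follicles, dermis, fat and muscle, so fewer cells of a type and less RNA per cell cannot be told apart.

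Promoter sequences of 3 of the 10 genes, Dsp, Jup and Pkp4, were read from the RefSeq table of build GRCm38.p6. Promoters of the other genes, the cadherin genes among them, were not read. The count of 3 therefore does not show which promoters that table holds. Those of Dsp and Jup are shown because their products meet in the plaque, and because the arrays below ranked these genes in opposite order within the GC13 group. Each line gives the 250 bases before the start site, 5′ to 3′ on the gene's strand, with capitals for matches to a GC box (GGGCGG) or a CCAAT box (CCAAT) on either strand. The Dsp stretch is chr13:38151044-38151293 on the plus strand, and the Jup stretch is chr11:100397791-100398040 on the minus strand.
Dsp: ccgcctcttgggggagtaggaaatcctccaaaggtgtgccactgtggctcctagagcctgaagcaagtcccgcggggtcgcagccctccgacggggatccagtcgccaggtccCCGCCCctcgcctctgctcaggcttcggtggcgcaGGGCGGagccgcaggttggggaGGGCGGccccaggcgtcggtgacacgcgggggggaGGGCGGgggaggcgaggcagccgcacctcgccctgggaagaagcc
Jup: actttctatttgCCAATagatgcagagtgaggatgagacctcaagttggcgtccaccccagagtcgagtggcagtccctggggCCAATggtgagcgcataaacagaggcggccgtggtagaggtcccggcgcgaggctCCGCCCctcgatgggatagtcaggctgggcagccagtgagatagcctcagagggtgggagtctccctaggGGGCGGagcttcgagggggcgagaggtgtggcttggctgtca
The Dsp stretch held 4 GC boxes and 0 CCAAT boxes, and the Jup stretch held 2 of each. Among 32851 stretches of the same length, 32.74% held a GC box and 33.85% a CCAAT box. Neither stretch held a TATA box (TATAAA, in 12.37% of all stretches). An AT-rich site of the kind Hox proteins bind (TTTATN or TTAATN followed by AA, AG, GA or GG, in 17.23% of all stretches, either strand) had 0 matches in both. GC content was 72.4% for Dsp and 62% for Jup, against a median of 52.4%. These matches describe the letters only.

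For the Gapdh controls, the ratio of the 3′ to the 5′ probe set, high where messenger RNA has lost its 5′ end, lay between 0.894 and 0.958 in FVB and was 2.22, 9.58 and 2.19 on GC13 replicates 1, 2 and 3. An exact two-sided permutation test gave p = 0.1, the smallest that 3 against 3 arrays allow. The ratio of beta-actin was 1.16 to 1.36 in FVB and 1.26, 3.80 and 1.43 in GC13 (exact permutation p = 0.2), so on this control only GC13 replicate 2 lay beyond the FVB arrays by a wide margin. GC13 replicate 2 stood apart from its group on both controls, and the members' differences are given with and without it. The Y-linked gene Eif2s3y had intensities from 69.4 to 98.9 in FVB, and 3.25, 143 and 4.60 in GC13. The annotation used here named 0 probe sets Hoxc13, so the overexpressed gene itself was not analysed here. The differentiation keratins Krt1 and Krt10 were bright on all arrays, while the probe sets of the basal keratins Krt5 and Krt14 were listed between 1.62 and 14.2 on the 6 arrays and were not tested.

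Differences are in log2 units, GC13 minus FVB, from log2(intensity + 2) with each array centred on its median, a scale that understates the change of dim probe sets. Of the 16 member probe sets 14, of all 10 genes, passed the filter on low values. The remaining 2 were a probe set of Dsp and 1 of Pkp2, with means at percentiles 9.79 and 11.9 of all 12422. In the limma fit over 9316 probe sets, 0 of the 14 members passed the threshold of 0.05 on the adjusted p, where 0.472% of all probe sets passed, 0.386% lower and 0.0859% higher. Their adjusted p ran from 0.153 to 0.926, and 4 of the 14 had an unadjusted p under 0.05, against 15.5% of all tested probe sets. The members' median was -0.0080, with 7 above 0 and 7 below, and the median of all tested probe sets was 0.081. Without GC13 replicate 2, 2 members were lower and 1 was higher past the threshold, in a fit where 14.8% of all probe sets passed, 8.8% lower and 6% higher. With array quality weights 7 passed, 4 lower and 3 higher, and 41.3% of all probe sets passed, 19.3% lower and 22% higher. The 4 were both Dsc2 probe sets, Dsc3 and Dsp, and the 3 were Dsc1, 99996_at of Pkp1 and 104338_r_at of Pkp2.

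Desmocollin 2 carried the largest difference of the group and was lower in GC13 by both of its probe sets. Dsc2 is the most widely distributed desmocollin, found in simple and stratified epithelia and in heart muscle. Its brighter probe set, 103506_f_at, had intensities of 239, 239 and 190 in FVB, against 37.0, 136 and 40.7 in GC13. The other probe set, 97768_at, had 121, 119 and 89.2 in FVB, against 10.2, 54.9 and 10.2 in GC13. Every GC13 array lay below every FVB array in both probe sets, with replicates 1 and 3 far below and replicate 2 between them and FVB. Means were 223 ± 28.5 (SD, n = 3) against 71.2 ± 56.1 (SD, n = 3) for 103506_f_at, and 110 ± 17.8 against 25.1 ± 25.8 for 97768_at.

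The fitted Dsc2 differences were -1.79 (SE 0.53, limma adjusted p = 0.182) for 103506_f_at and -2.37 (SE 0.63, limma adjusted p = 0.153) for 97768_at, so neither passed. Their 95% intervals ran from -3.01 to -0.58 and from -3.82 to -0.91. Without GC13 replicate 2 they passed, at -2.48 (limma adjusted p = 0.0026) and -3.20 (limma adjusted p = 0.0023), which are 5.56-fold and 9.19-fold lower. In order of difference they stood at places 41 and 15 from the lowest of 9316 with all arrays, and at places 16 and 6 without GC13 replicate 2. Both stayed below 0 under all 15 alternatives, between -2.49 and -1.39 for 103506_f_at and between -3.20 and -1.35 for 97768_at. Each passed under 2 of them, the fit without GC13 replicate 2 and the fit with array quality weights. In these fits 14.8% and 41.3% of all probe sets passed. Estimates with the weights, -2.49 and -3.16, were close to those without that array. The suffix _f marks a probe set whose probes can be shared with related sequences, and the sources used here give no probe positions.

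The GC13 arrays with the lowest Dsc2, replicates 1 and 3, were also those with low Eif2s3y and with Gapdh ratios near 2.2. GC13 replicate 2, with the Gapdh ratio of 9.58 and Eif2s3y of 143, had Dsc2 values at -0.43 and -0.69 relative to the FVB mean in log2 units, against -3.26 to -2.46 on the other GC13 arrays. The FVB arrays, which had Eif2s3y in the range above, spread over 0.40 and 0.50 log2 units in the Dsc2 probe sets. Without GC13 replicate 2, all GC13 arrays left had low Eif2s3y and Gapdh ratios near 2.2, and no FVB array had either. In that fit the mouse line, sex and RNA quality therefore cannot be told apart, for Dsc2 or for any other gene. With all 6 arrays, every GC13 Gapdh ratio still lay above every FVB ratio, while beta-actin ratios overlapped. The mouse line and RNA quality as read by Gapdh thus cannot be told apart in the main fit either. The part of RNA quality and of sex in the Dsc2 difference was not tested.

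**Figure D1:**
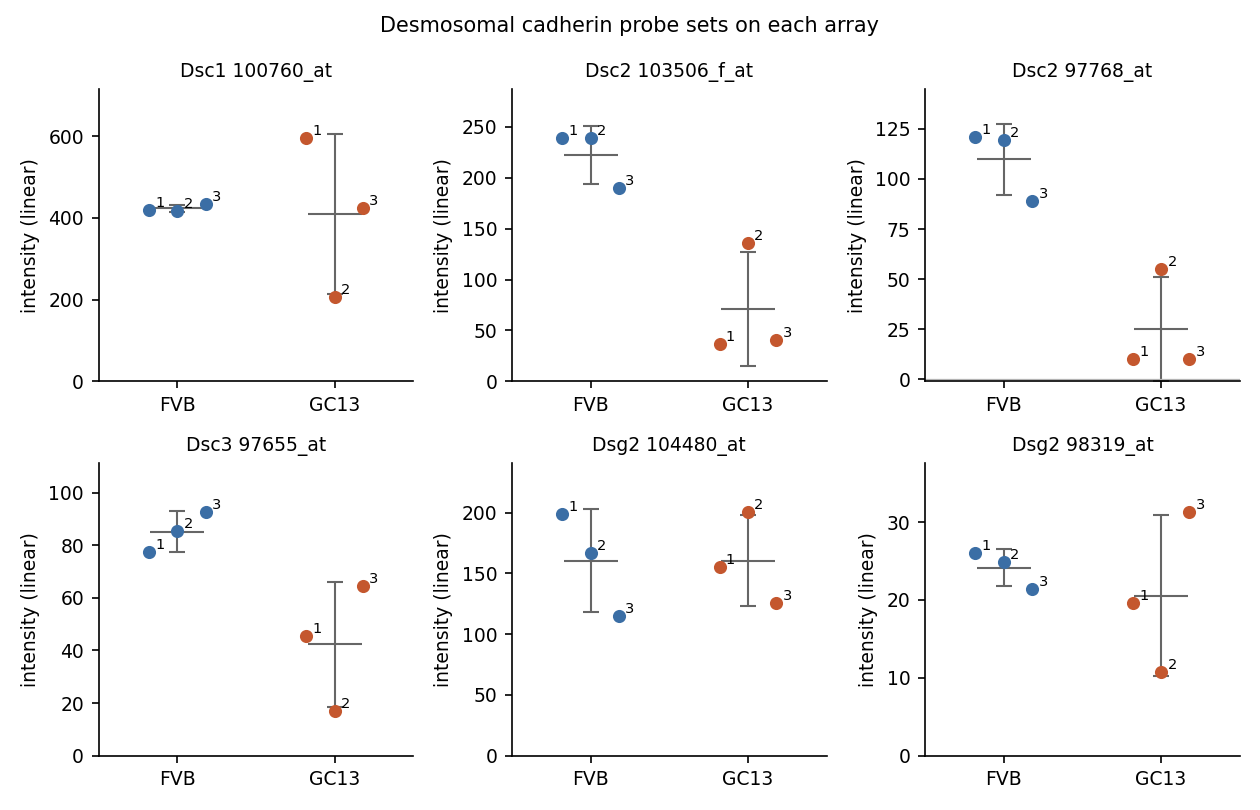
Deposited intensity (linear, y axis) of the 6 desmosomal cadherin probe sets on each FVB (blue) and GC13 (orange) array. Points carry the replicate number, and grey bars give the mean and SD of 3 arrays. Both Dsc2 probe sets and Dsc3 have all GC13 arrays below all FVB arrays, with GC13 replicate 2 highest for Dsc2 and lowest for Dsc3, while Dsc1 and Dsg2 overlap.

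Whether the Dsc2 probe sets moved alike was asked within each array. The log2 value of 103506_f_at minus that of 97768_at was 0.97, 0.99 and 1.07 in FVB, against 1.67, 1.28 and 1.80 in GC13. The gap was thus wider on every GC13 array, by 0.57 on average (exact permutation test, p = 0.1, the smallest possible; 0.35 after Benjamini-Hochberg adjustment over the 7 pairs compared). With a pseudocount of 32 in place of 2 the sign turned, to -0.033, so the size of the gap depends on how dim values are treated.

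Desmocollin 3, a desmocollin of the basal epidermis, was also lower on all GC13 arrays, but on a different pattern. Its intensities were 77.3, 85.5 and 92.6 in FVB, against 45.5, 17.0 and 64.4 in GC13. The lowest value came from replicate 2, the array on which Dsc2 was least reduced. The difference was -1.08 (SE 0.36, limma adjusted p = 0.229), with a 95% interval from -1.91 to -0.24. Without GC13 replicate 2 it was -0.65 (limma adjusted p = 0.0531), 1.57-fold lower, and it passed with array quality weights alone among 15 alternatives, at -0.81 (limma adjusted p = 0.0039).

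Desmocollin 1, the desmocollin of the upper, differentiating epidermis and of the inner root sheath, did not separate the groups. Intensities were 419, 417 and 434 in FVB, against 596, 207 and 425 in GC13. By these intensities, FVB arrays were nearly equal, and GC13 arrays lay above, below and among them. The difference of -0.10 (SE 0.32, limma adjusted p = 0.907) had a 95% interval from -0.84 to 0.64, and without GC13 replicate 2 it turned to 0.23 (limma adjusted p = 0.458), and with array quality weights to 0.45 (limma adjusted p = 0.0451).

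Desmoglein 2, the desmoglein of simple epithelia, heart and parts of the follicle, showed no separation in either probe set. The brighter, 104480_at, had 199, 167 and 115 in FVB, against 155, 201 and 126 in GC13, and differed by 0.09 (SE 0.33, limma adjusted p = 0.926). Its 95% interval, from -0.67 to 0.84, leaves room for a change in either direction. The dimmer, 98319_at, had 26.1, 24.8 and 21.5 in FVB, against 19.6, 10.7 and 31.3 in GC13, with a difference of -0.24 (SE 0.29, limma adjusted p = 0.729). Both differences changed sign without GC13 replicate 2, to -0.18 and 0.02, and that of 104480_at also without FVB replicate 3, to -0.15. Set against Dsg2 104480_at within each array, Dsc2 103506_f_at was lower on all GC13 arrays than on any FVB array, with a mean shift of -1.88 (exact permutation test, p = 0.1; 0.35 adjusted over the 7 pairs). The same comparison against Dsc1 and Dsc3 gave shifts of -1.69 and -0.72 with overlapping groups (exact permutation p = 0.4 and 0.5; both 0.7 adjusted), as GC13 replicate 2 lay above all FVB arrays.

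Among the plaque proteins, desmoplakin and plakoglobin differed in opposite directions on GC13 replicates 1 and 3. Dsp 94247_at, which reports the plakin that grips the keratin filaments, had 1543, 1835 and 1506 in FVB, against 1159, 1720 and 1149 in GC13. Replicates 1 and 3 were below all FVB arrays, and replicate 2 lay among them in intensity. On the centred log2 scale replicate 2 lay above them, at 0.35 relative to the FVB mean against at most 0.16 in FVB. The difference was -0.23 (SE 0.28, limma adjusted p = 0.741), and -0.51 without GC13 replicate 2 (limma adjusted p = 0.0763). Jup, the armadillo protein that binds the cadherin tails and is shared with adherens junctions, had 556, 473 and 514 in FVB, against 675, 264 and 883 in GC13. Here replicates 1 and 3 lay above all FVB arrays and replicate 2 below them, so the group difference was only 0.15 (SE 0.36, limma adjusted p = 0.872), and 0.56 without GC13 replicate 2 (limma adjusted p = 0.0719) or -0.13 without GC13 replicate 3. The second probe set of Dsp, 161892_r_at, had values between 0.483 and 1.38 in FVB and between 2.74 and 4.18 in GC13, far below the brightness of the first, and was not tested in the main fit.

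Plakophilin 1, the main plakophilin of the differentiating epidermis, was measured by 2 bright probe sets that disagreed on GC13 replicate 2. For 99996_at, intensities were 901, 877 and 875 in FVB, against 1686, 636 and 1379 in GC13. Replicates 1 and 3 stood well above FVB, and replicate 2 below it. The difference was 0.44 (SE 0.31, limma adjusted p = 0.532), and without GC13 replicate 2 it passed at 0.76 (limma adjusted p = 0.0381), 1.69-fold higher. For 97601_f_at, intensities were 1252, 1094 and 1178 in FVB, against 1326, 1313 and 1347 in GC13. All GC13 intensities were above all FVB intensities by a small margin. On the centred log2 scale the groups overlapped, with GC13 replicate 3 at 0.12 and FVB replicate 1 at 0.14 relative to the FVB mean. The difference was 0.25 (SE 0.20, limma adjusted p = 0.588), and 0.17 without GC13 replicate 2. The within-array gap of the Pkp1 probe sets lay between 0.32 and 0.47 in FVB and at -0.35, 1.04 and -0.03 on GC13 replicates 1, 2 and 3.

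Plakophilin 2, known from simple epithelia and heart, had its largest value on GC13 replicate 2. Its brightest probe set, 104337_f_at, had 60.8, 66.7 and 55.4 in FVB, against 45.6, 125 and 45.6 in GC13. Replicates 1 and 3 were below FVB and replicate 2 was above it, which gave a difference of 0.15 (SE 0.45, limma adjusted p = 0.902) that turned to -0.42 without GC13 replicate 2 (limma adjusted p = 0.113). The dim 104338_r_at had 16, 23.7 and 17.7 in FVB, against 27.5, 26.1 and 29.8 in GC13, with every GC13 array higher and a difference of 0.58 (SE 0.21, limma adjusted p = 0.255), or 0.53 without GC13 replicate 2 (limma adjusted p = 0.0985). The suffix _r marks a probe set for which the maker relaxed its selection rules. The third, 162194_r_at, stayed between 0.505 and 3.66 on the 6 arrays.

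Plakophilin 3, present in the desmosomes of most epidermal layers, had 592, 596 and 717 in FVB, against 519, 404 and 560 in GC13. All GC13 arrays were below all FVB arrays, and the difference of -0.29 (SE 0.19, limma adjusted p = 0.505) changed little without GC13 replicate 2, to -0.25. Pkp4, a relative of the plakophilins that is also found at adherens junctions, had 320, 325 and 283 in FVB, against 368, 496 and 318 in GC13. Its groups overlapped, and its difference was 0.40 (SE 0.28, limma adjusted p = 0.536) with all arrays and 0.12 without GC13 replicate 2. Across the 14 tested probe sets, 4 had every GC13 intensity below every FVB intensity, where 12.3% of all tested probe sets did, and 2 had every GC13 intensity above, where 10.6% did. The 4 were both Dsc2 probe sets, Dsc3 and Pkp3, and the 2 were 97601_f_at of Pkp1 and 104338_r_at of Pkp2.

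**Figure D2:**
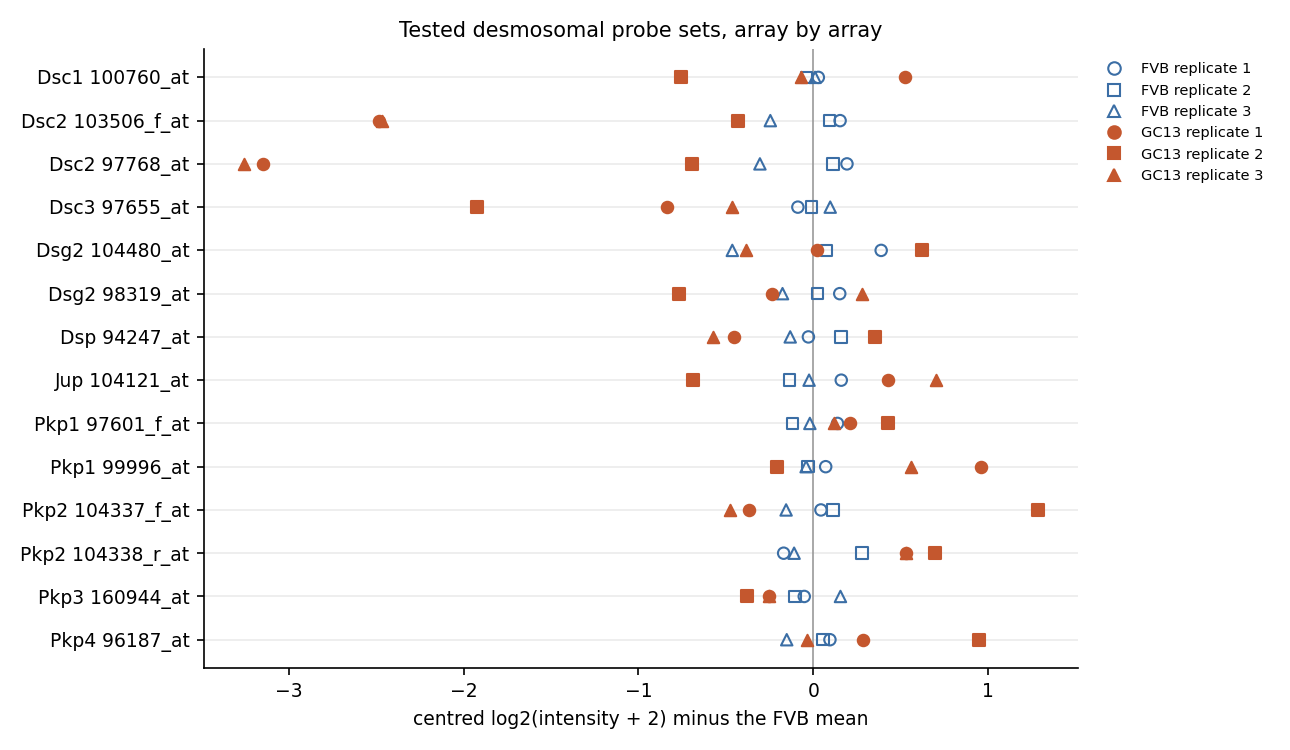
Centred log2(intensity + 2) of each array minus the FVB mean (x axis) for the 14 tested desmosomal probe sets (y axis), with open blue symbols for FVB, filled orange symbols for GC13 and 1 shape for each replicate number. GC13 replicate 2 (squares) is the lowest GC13 array for 6 probe sets and the highest for 8, and the Dsc2 probe sets hold the lowest values, below -2.4 on GC13 replicates 1 and 3.

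The members spread more widely over the GC13 arrays than over the FVB arrays in 12 of the 14 probe sets, as did 84.7% of all tested probe sets. Its median was 1.11 log2 units for the members in GC13 and 0.28 in FVB, against 0.79 and 0.28 over all tested probe sets. On the centred log2 scale, GC13 replicate 2 was lowest of its group for Dsc1, Dsc3, Jup, Pkp3, 98319_at of Dsg2 and 99996_at of Pkp1. It was highest for both Dsc2 probe sets, Dsp, Pkp4, 104480_at of Dsg2, 97601_f_at of Pkp1 and both tested Pkp2 probe sets. For 97601_f_at and for 104338_r_at of Pkp2 this order comes with the centring, since on the deposited intensities replicate 2 was the lowest GC13 array. The members therefore did not follow a common order over the GC13 arrays. On the centred scale the probe sets of Dsg2, and those of Pkp1, placed replicate 2 at opposite ends, while those of Dsc2 and of Pkp2 both placed it highest. On the deposited intensities both Pkp1 probe sets placed it lowest, and the tested Pkp2 probe sets placed it at opposite ends.

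**Figure D3:**
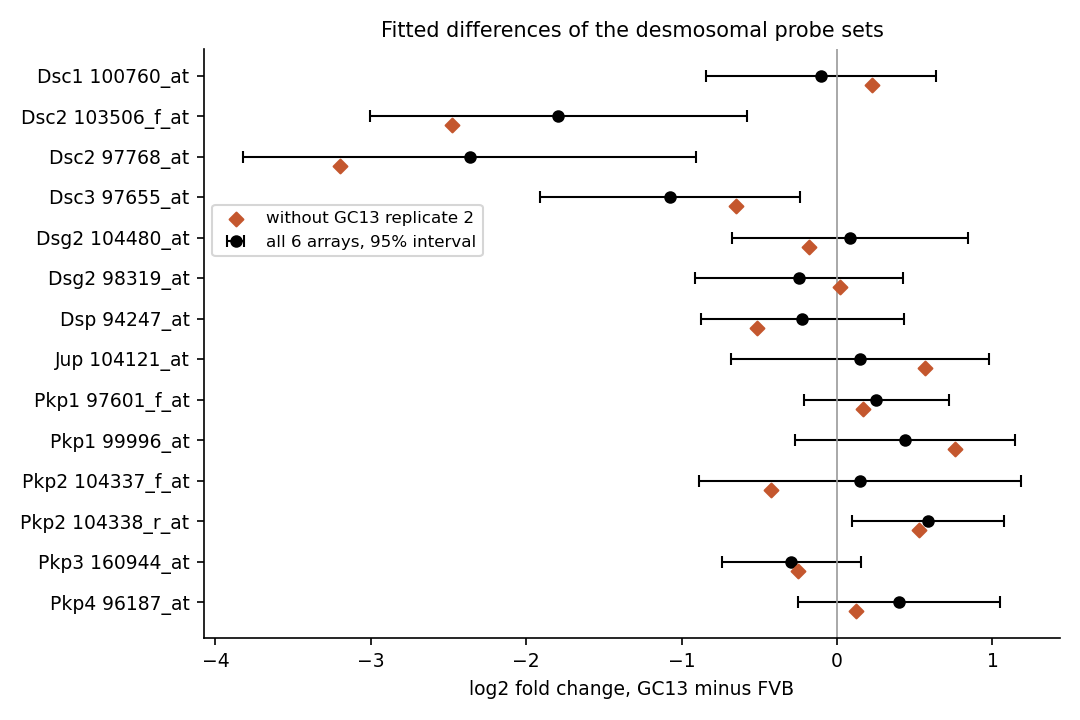
Fitted log2 fold change, GC13 minus FVB (x axis), of the 14 tested probe sets, with black points and 95% intervals for all 6 arrays and orange diamonds for the fit without GC13 replicate 2. The Dsc2 estimates lie at -1.79 and -2.37 and move to -2.48 and -3.20, and the estimates for Dsc1, both Dsg2 probe sets and 104337_f_at of Pkp2 change sign.

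Genes with the most similar pattern over the 6 arrays were taken by Pearson's r of the centred log2 values, among 6857 other genes and with no test. For Dsc1, the cadherin gene with the highest mean, these were Agap3, Anapc2, Cuta, Pigu and Ccn1, with r from 0.986 to 0.993. For Dsp, the plaque gene with the highest mean, they were Rmi1, Car14, Wdr1, Pex7 and Sap30, with r from 0.992 to 0.997. For Dsc2, added after its values were seen, they were Stbd1, Msx1, Rps19, Aktip and Ucp1, with r from 0.993 to 0.995. Msx1, which encodes a homeodomain factor of the hair matrix, had 253, 234 and 212 in FVB, against 107, 164 and 115 in GC13. With 6 arrays in 2 groups such values are common: 48, 303 and 101 genes had r above 0.95 with Dsc1, Dsp and Dsc2.

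Other genes of cell junctions were counted for comparison, each by its brightest probe set. Desmosome-associated proteins, such as the linker periplakin (Ppl) and the envelope glycoprotein corneodesmosin, had 0 of 6 tested members past the threshold in either direction and a median of 0.15. The members with the smallest p were Ctnnd1, a catenin of adherens junctions, at 0.52 (limma adjusted p = 0.299), the cytolinker plectin (Plec) at -0.66 (limma adjusted p = 0.301) and Ppl at 0.44 (limma adjusted p = 0.318). Ppl had 774, 838 and 808 in FVB, against 1134, 862 and 1147 in GC13. Adherens junction genes had 0 of 12 past the threshold and a median of 0.22. Ctnnd1 again led them, followed by Lima1 and Vcl, which link the junction to actin, at 0.44 and 0.46. Without GC13 replicate 2, still 0 members of either list passed, where 14.8% of all probe sets did, and the medians were 0.030 and 0.18.

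Tight junction genes had the lowest median of the comparison lists, -0.55 over 6 tested members, with 4 below 0 and 0 past the threshold. Cldn4, a claudin of barrier epithelia, had 800, 774 and 870 in FVB, against 230, 141 and 429 in GC13, a difference of -1.68 (SE 0.32, limma adjusted p = 0.0797). Cldn3 had 104, 96.8 and 89.8 in FVB, against 42.4, 41.0 and 46.0 in GC13, a difference of -1.06 (SE 0.20, limma adjusted p = 0.0764). Cldn4 was lowest on GC13 replicate 2, the array with the highest Dsc2 of the group, and Cldn3 differed little among the GC13 arrays. The scaffold gene Tjp1 differed by 0.30 (limma adjusted p = 0.594), and by 0.096 without GC13 replicate 2. Without that array the list's median was -0.88. In that fit Cldn1, Cldn3 and Cldn4, of 6 tested members, were lower past the threshold, as were 8.8% of all probe sets.

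Hemidesmosome genes, which anchor basal keratinocytes to the basement membrane, had 0 of 7 past the threshold and a median of 0.16, or 0.54 without GC13 replicate 2. Plec, Lama3 and Col17a1 had the smallest p, with differences of -0.66, 0.44 and 0.49. Without GC13 replicate 2, Col17a1 alone was higher past the threshold, at 0.69 (limma adjusted p = 0.0423), where 6% of all probe sets were higher. Among 8 tested epidermal keratins, the cargo that desmosomes anchor, 1 fell, Krt77, where 0.386% of all probe sets did. The other 7 did not pass, and the list's median was 0.14. Krt77 had 1060, 1066 and 1152 in FVB, against 451, 374 and 430 in GC13, a difference of -1.31 (SE 0.19, limma adjusted p = 0.037), and with any array other than GC13 replicate 2 left out, 0 of these keratins passed. Krt1, a keratin of the same differentiating layers as Dsc1 and Pkp1, had 1435, 1216 and 1216 in FVB, against 3661, 1489 and 3338 in GC13, a difference of 1.11 (SE 0.30, limma adjusted p = 0.158) that passed without GC13 replicate 2 at 1.42 (limma adjusted p = 0.01). The third by p was Krt2, at -0.63 (limma adjusted p = 0.203).

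**Figure D4:**
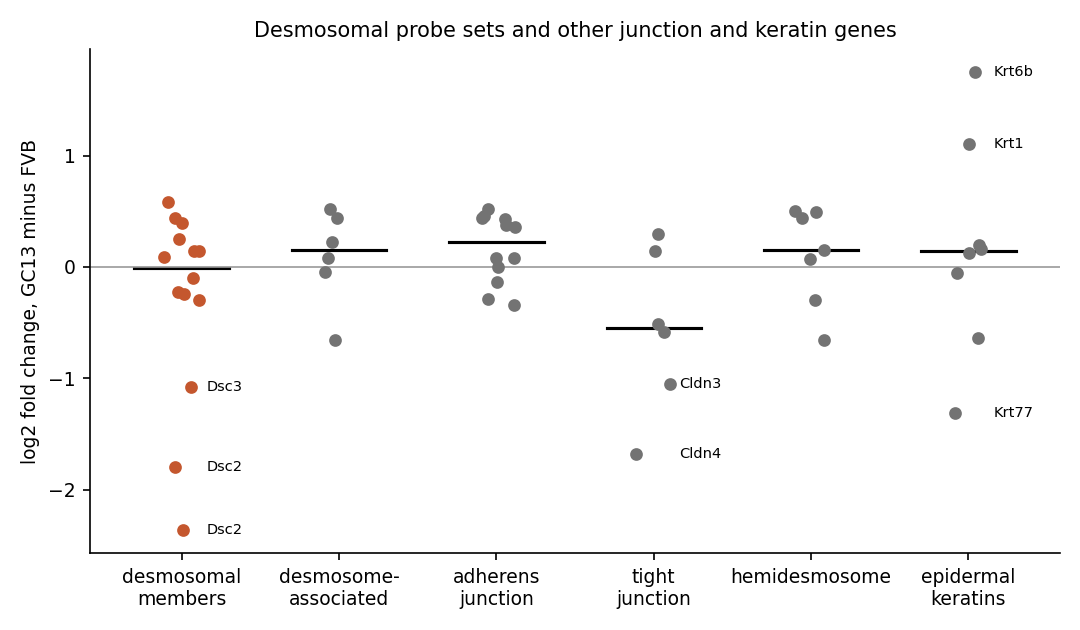
Log2 fold change, GC13 minus FVB (y axis), of the 14 desmosomal probe sets (orange) and of the tested genes of 5 comparison lists (grey, 1 point for each gene), with black lines at the medians and names for differences beyond 1 in either direction. The Dsc2 and Dsc3 points lie below the other desmosomal points, and Cldn3 and Cldn4 lie lowest among the tight junction genes.

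Markers of the cell types that whole skin can hold were read beside the members. The 5 tested keratinocyte markers (Krt1, Krt10, Trp63, Sfn and Cdh1, of 7 listed) summed to between 5317 and 5926 in FVB and to 7452, 5032 and 7215 on GC13 replicates 1, 2 and 3. Replicate 2 was the lowest GC13 array in this sum, of which Krt1 had the largest differences among arrays, but it was the highest for Krt10 and Trp63. Of the keratinocyte markers 4 had differences above 0. Sfn (-0.66) was lower on every GC13 array, at 1134, 697 and 1378 against 1623 to 1768 in FVB. The 4 fibroblast markers summed to between 5276 and 5774 in FVB and between 6529 and 8593 in GC13. The 5 skeletal muscle markers summed to between 1990 and 2141 in FVB and between 2163 and 2519 in GC13. Acta1 made up most of the muscle sum, with 1684 to 1830 in FVB and 1850 to 2081 in GC13. Differences were above 0 for all 4 fibroblast markers and for 4 of the 5 muscle markers, with Ckm at -0.10. For the 3 junction genes shared with heart muscle (Des, Gja1 and Cdh2) the sums overlapped, from 1781 to 2031 in FVB and from 1801 to 2297 in GC13. Gja1 made up most of these sums, with 1731 to 1975 in FVB and 1724 to 2219 in GC13. Endothelial markers (4) summed to between 250 and 346 in FVB and between 338 and 512 in GC13. Melanocyte markers (3 of 4 listed) and macrophage markers (4) summed to lower values in GC13, 462 to 748 against 883 to 952, and 220 to 292 against 302 to 332. In the macrophage list this came mostly from C1qa, at -1.87 (limma adjusted p = 0.0819), while Ptprc, Csf1r and Cd68 had -0.17, -0.062 and 0.11. Adipocyte (2 of 3 listed) and sebocyte (2) sums overlapped, from 855 to 887 against 825 to 1305, and from 2038 to 2092 against 1938 to 2314. None of the marker genes passed the threshold with all 6 arrays. Without GC13 replicate 2, Dsc2 passed, as did 14.8% of all probe sets. In that fit Krt1, Myh3, Tnnt3, Des, Col1a2, Pdgfra and Mc5r were higher and Tyrp1 and C1qa lower past the threshold. Among them, Pdgfra had 1.09 (limma adjusted p = 0.0204) and C1qa -1.51 (limma adjusted p = 0.0214). The markers' part in the members' differences was not tested.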

How the data were processed

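Total RNA of whole skin was measured on 6 Affymetrix arrays, 3 FVB and 3 GC13. The values deposited by the authors are linear intensities of 12488 probe sets. The sources used here do not name the software that made them or give detection calls. The values themselves show a common trimmed mean near 100 on every array. The 66 control probe sets served only for the ratios of 3′ to 5′ signal. Other probe sets were set to log2(intensity + 2), centred on each array's median because these medians differed by up to 0.345, and the 25% with the lowest mean over 6 arrays were left out, which left 9316. Signal over background is unknown, and the number of arrays limits the precision. The groups were compared in R 4.3.3 with limma 3.58.1, two-sided, with Benjamini-Hochberg adjustment over all 9316 and a threshold of 0.05. The scripts were tested on simulated arrays.

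Symbols follow the annotation of the array platform, brought up to date by Entrez identifier from RefSeq's GRCm38.p6 genes. All 16 member probe sets matched it. A comparison gene stands by its brightest probe set. Named are all member probe sets, the 3 genes of each comparison list with the smallest p, and the 5 genes most like the brightest cadherin and plaque genes. Members, lists and tests were chosen with earlier results of these data known. Corneodesmosin, Cldn1, the genes like Dsc2, and 6 of the 7 within-array pairs were added after values were seen. Alternatives were pseudocounts of 8 and 32, other filters and scalings, a variance trend, array quality weights, a replicate block and leaving out each array.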

Additional observations from a re-analysis of the deposited data

How the results depend on the processing

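The number of desmosomal probe sets past the threshold, 0 with all arrays, rose to 7 with array quality weights and ran from 0 to 3 when each array was left out. It stayed at 0 under the other alternatives. Over all probe sets the count was 44, and 116 with a pseudocount of 32, 23 with the lowest 50% left out, 28 without centring, 3850 with array quality weights, and from 0 to 1379 when each array was left out. The samples share only a replicate number: with the number as a block, 78 of all probe sets passed, 0 desmosomal ones and 1 tight junction gene. The deviations of same-numbered arrays correlated at -0.068, 0.18 and 0.36, so the numbers were not taken as pairs. With array quality weights 41.3% of all probe sets passed. List members past the threshold were 3 of 6 (desmosome-associated), 7 of 12 (adherens junction), 3 of 6 (tight junction), 4 of 7 (hemidesmosome) and 5 of 8 (epidermal keratins). A pseudocount of 32 gave 2 tight junction genes. Leaving out each array gave 0 to 3 for tight junction, 0 to 1 for hemidesmosome and 0 to 2 for epidermal keratin genes.

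Signs turned in 9 of 208 values, for 5 of 14 probe sets, none of them Dsc2 or Dsc3. With array quality weights Dsc1 had 0.45, Dsg2 104480_at -0.11 and Pkp2 104337_f_at -0.37. When each array was left out, Dsc1 ran from -0.41 to 0.23, Dsg2 104480_at from -0.18 to 0.32, Dsg2 98319_at from -0.50 to 0.019, Jup from -0.13 to 0.56 and Pkp2 104337_f_at from -0.42 to 0.46. The within-array Dsc2 gap was -0.033 with a pseudocount of 32, which damps the dimmer probe set more. The other causes were not tested. Fits without an FVB array called 0 of all probe sets.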
